A study of Homo sapiens with 39 samples.

Results

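Untreated Kasumi-1, a human acute myeloid leukemia (AML) line, was set against 6 other AML lines on arrays from cultures that received only vehicle. The members are the 18 vehicle arrays of a series of 39, of which 2 are Kasumi-1 (vehicle replicates 2 and 3) and 16 come from OCI-M1, OCI-AML3, NOMO-1 and MV-4-11 (3 arrays each) and from KG-1a and Sig-M5 (2 each). Each vehicle culture was given DMSO for 24 h, so the cells are untreated by drug but not by solvent. The other 21 arrays, 3 a line, are of cells given tamibarotene (SY-1425), a drug that activates the retinoic acid receptor alpha (RARA), added at 100 nM for a final 50 nM, and served here as a check. The tissue label of each sample is AML, each line is 1 culture line, and nothing in the labels says that replicates were separate cultures, so p-values measure only the spread between these samples. It is a spread of arrays and not of lines: a difference belongs to this line, and since Kasumi-1 is the study's 1 line known for the fusion described next, the fusion and the line's other features cannot be told apart.

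Kasumi-1 was established from AML with the translocation that joins RUNX1, a DNA-binding transcription factor of blood cells, to RUNX1T1, a corepressor otherwise little expressed in marrow. The fusion protein keeps the DNA-binding part of RUNX1 and recruits histone deacetylases, and it is known for holding myeloid cells at an early granulocytic stage, with less of the C/EBPalpha program. The line is also known to carry an activated KIT receptor. RUNX1 itself lies only on probe sets that name several genes, and neither it nor the fusion transcript was measured here.

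Levels are log2 intensities from the authors' normalized table, and 1 unit is a 2-fold step. A difference is the Kasumi-1 mean minus the unweighted mean of the 6 other line means. It was tested with limma on the 18 arrays and called at a Benjamini-Hochberg adjusted p under 0.05 over all probe sets with 1 gene symbol. Each of 18132 genes was read from the probe set with the highest mean over the 18 arrays. A gene was counted as set apart where Kasumi-1 differed from each of the 6 lines in the same direction, each pairwise contrast called, and its mean lay at least 1 log2 unit beyond the nearest line mean. The gap is that distance. In the Kasumi-1 arrays 33.4% of probe sets lay below 4 and 49.5% below 5, while 94.2% lay below 10, which gives a scale for the levels that follow. Where the lower side of a difference lies near the bottom of this scale, the difference is a lower bound. Arrays carry no read depth, and their number limits the precision.

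The medians of the Kasumi-1 arrays, 5.01 and 5.02, lay at the low end of the other 16 vehicle arrays (5.02 to 5.17), and the pair correlated at r = 0.987 over probe sets. They differed in the actin control, where the 3' value exceeded the 5' value by 1.18 in replicate 2 and by 0.30 in replicate 3. That difference was -0.02 to 0.56 in the other vehicle arrays apart from Sig-M5, whose arrays stood at 0.81 and 1.89, and 0.20 to 0.22 in the treated Kasumi-1 arrays. Between replicates 2 and 3, 1257 probe sets differed at least 2-fold. Vehicle pairs within the other lines apart from Sig-M5 differed in 20 to 3147, so this count was within their range. Because of the actin difference, each large difference below was read again in replicate 3 alone and in the treated arrays.

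In total 3493 genes were higher in Kasumi-1 (19.3% of those tested) and 3038 were lower (16.8%), and the median difference over all genes was -0.02. These shares are the background for each count of list members below. At least 2-fold differences were fewer, 1211 higher (6.68%) and 954 lower (5.26%). Far fewer genes were set apart from every line, 233 higher (1.29%) and 84 lower (0.463%). Over the 44988 probe sets the shares were similar, with 16.8% higher, 17.1% lower, 1.25% set apart higher and 0.349% set apart lower. By the same count MV-4-11 had 92 and 59 such genes, OCI-AML3 90 and 32, NOMO-1 286 and 39, KG-1a 299 and 178, OCI-M1 389 and 201, and Sig-M5 630 and 423. Of the genes set apart higher in Kasumi-1, 60 of 233 had a highest other line mean under 5. Of those set apart lower, Kasumi-1 itself lay under 5 in 35 of 84. The median gap was 1.51 in the first group and -1.47 in the second.

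The line nearest to Kasumi-1 changed with the gene. For genes set apart higher it was most often NOMO-1 (59 genes) or KG-1a (52), then Sig-M5 (40), MV-4-11 (32), OCI-M1 (26) and OCI-AML3 (24). For genes set apart lower it was Sig-M5 (18), KG-1a (17), OCI-M1 (16), NOMO-1 (13), OCI-AML3 (11) or MV-4-11 (9). Line means correlated over genes at r = 0.932 with MV-4-11, 0.930 with OCI-AML3, 0.923 with KG-1a, 0.920 with NOMO-1, 0.909 with OCI-M1 and 0.899 with Sig-M5, against 0.876 to 0.962 for the 15 pairs of other lines. These correlations are across genes, which share each array's processing, and are given as a description.

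**Figure D1:**
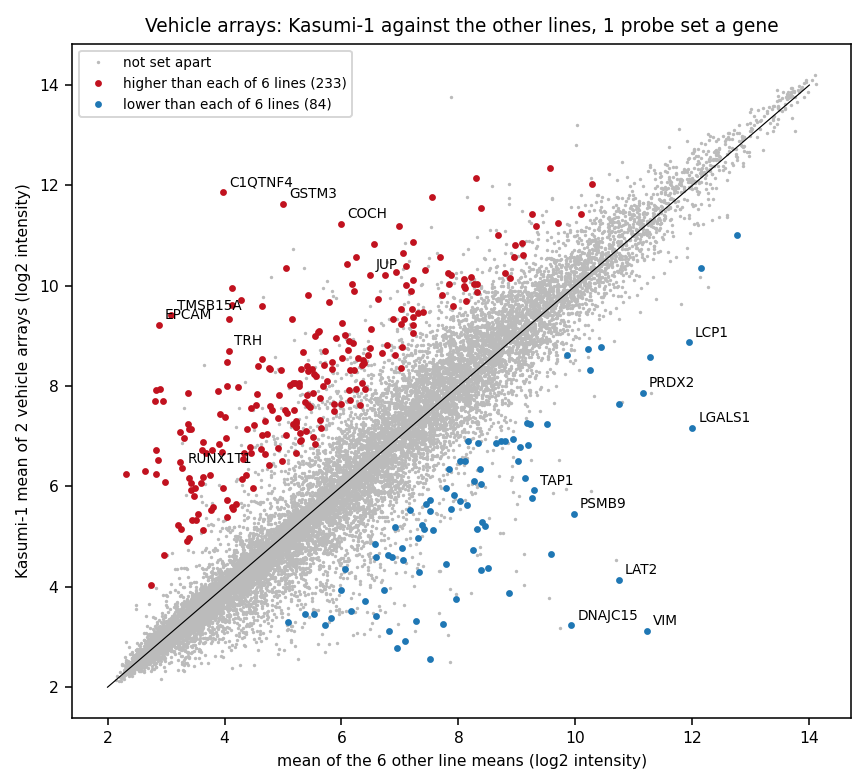
Each point is 1 gene, placed by the mean of the 6 other line means (horizontal) and the mean of the 2 Kasumi-1 vehicle arrays (vertical), both in log2 intensity, with the line of equality. The 233 genes set apart higher (red) and the 84 set apart lower (blue) lie away from a cloud whose median difference is -0.02, with C1QTNF4 and GSTM3 at the upper left and VIM, DNAJC15 and LAT2 at the lower right.

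RUNX1T1, the corepressor partner in the fusion, was among the genes set apart. Its level was 6.51 and 6.21 in the Kasumi-1 arrays, against a lowest of 2.82, a median of 3.22 and a highest of 3.72 in the other 16. No other array came near, and the difference was 3.08 ± 0.14 (SE), adjusted p = 6.95e-11 (limma), with a gap of 2.68 to Sig-M5. The gene's 4 other probe sets gave larger differences, 3.56 to 5.62, and each was set apart too (1.25% of probe sets were, in that direction). Whether these probe sets lie in the part that the fusion keeps was not tested. Of the 6 measured genes of the RUNX and core-binding factor list, RUNX1T1 included, 4 were higher and 1 lower, and no other was set apart. RUNX2 (1.7), CBFA2T2 (0.88), a relative of RUNX1T1, and RUNX3 (0.8) were higher, and RUNX2 was higher still in OCI-AML3 (10.22). CBFA2T3, the other relative, was lower (-0.96). CBFB, the partner subunit of RUNX proteins, gave -0.07 (adjusted p = 0.814).

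Of 23 measured genes reported high in AML with this fusion, 13 were higher, 3 lower and 7 not called, with a median difference of 0.57. Over all genes 19.3% were higher and 16.8% lower. The mean over the list was 6.91 and 6.89 in the Kasumi-1 arrays, above all other vehicle arrays (4.92 to 6.01). TRH, the thyrotropin-releasing hormone precursor, and JUP, plakoglobin of desmosomes and adherens junctions, were the 2 genes of the list set apart. TRH stood at 8.28 and 9.12 against 3.7 to 4.36 (median 4.04), a difference of 4.63 ± 0.16 (adjusted p = 4.44e-12). JUP stood at 10.63 and 9.81 against 5.15 to 7.85 (median 6.58), a difference of 3.74 ± 0.15 (adjusted p = 2.37e-11). Neither gene's Kasumi-1 values overlapped those of any other line, as held for 1144 genes in all (6.31%) in that direction.

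MPO, the myeloperoxidase of azurophil granules, was at 13.89 and 13.66 in Kasumi-1, where Sig-M5 had a mean of 13.87 and NOMO-1 12.9, and its difference of 5.9 came from the other 4 lines at 4.03 to 6.52. KIT, the stem cell factor receptor, stood at 10.58 and 10.87 and gave 5.56 ± 0.23 (adjusted p = 4.01e-11). OCI-M1 came within 0.91 of it at 9.82, so on this probe set KIT was above every line without being set apart. Its 2 other probe sets gave 2.29 and 0.81, and on neither was the Kasumi-1 mean above every line mean. UBASH3B (1.96), BAALC (2.07) and CD34 (1.85) were higher in KG-1a than in Kasumi-1, IGFBP7 (2.12) was higher in NOMO-1, and WT1 (1.27) in OCI-M1. POU4F1, a POU homeobox factor reported high in this leukemia, went against the list at 5.04 and 4.86, with a difference of -0.55 (adjusted p = 0.00402). KG-1a and OCI-M1 held it at 7.17 and 7.34. PAX5 (0.09, adjusted p = 0.519), CD79A (-0.05, 0.766) and CAV1 (-0.43, 0.057) were not called.

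Of 10 genes reported to be repressed by the fusion, 7 were lower, 1 was higher and 2 were not called, and 3 were set apart lower. Over all genes 16.8% were lower, 19.3% higher and 0.463% set apart lower. The median difference was -1.90. LAT2, a membrane adaptor of KIT and Fc receptor signaling, had the largest difference of the list: 3.82 and 4.47 in Kasumi-1 against a lowest of 6.61, a median of 11.69 and a highest of 12.39. That is -6.6 ± 0.16 (adjusted p = 7.54e-14), and its 3 other probe sets gave -4.65 to -3.92. NFE2, the erythroid and megakaryocytic bZIP factor, stood at 4.81 and 4.11 against 5.67 to 10.72 (-3.33 ± 0.17). RASSF2, a Ras-association adaptor, stood at 6.31 and 6.0 against 7.28 to 10.42 (-2.98 ± 0.12). Both were below every other vehicle array.

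CEBPA, the C/EBP factor that drives granulocytic differentiation, was at 8.34 and 7.25 in replicates 2 and 3, and the other arrays ran from 7.95 through a median of 10.67 to 11.88. The 2 replicates lay on either side of the lowest OCI-M1 array, so Kasumi-1 overlapped that line alone. The difference was -2.53 ± 0.2 (adjusted p = 5.93e-08) and -3.07 in replicate 3 alone. LYZ, lysozyme, was lower than the mean of the lines (-3.42) but above KG-1a, at 7.91 and 7.83 against 5.14. OGG1 (-1.28), a DNA glycosylase, and NF1 (-0.75), a Ras inhibitor, were lower too. The 3 other OGG1 probe sets were all called lower, at -3.37 to -0.53, and 2 of them were set apart. The 20 other NF1 probe sets gave -1.03 to 0.23, and only 5 were called, all lower. CEBPE, a factor of late granulocytic maturation, was the 1 member that was higher (3.25 ± 0.18), at a level close to Sig-M5. SFRP1 and CDKN2A gave 0.03 and 0.08 (adjusted p = 0.89 and 0.599). Both fusion-related lists were drawn from the literature on other samples and were chosen with earlier results of these data known.

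**Figure D2:**
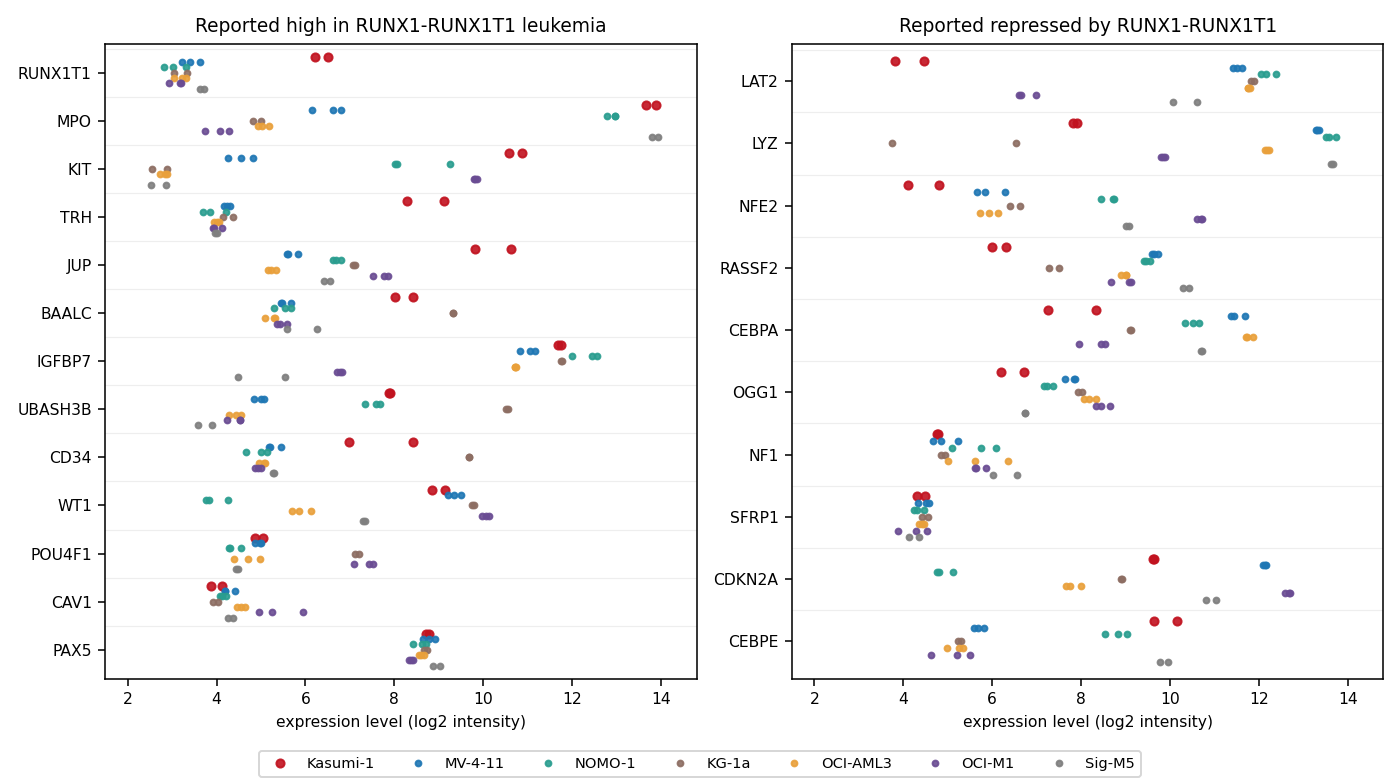
Each point is 1 vehicle array, coloured by line, with the level in log2 intensity on the horizontal axis and 1 gene a row. Kasumi-1 (red, 2 arrays, top of each row) stands alone for RUNX1T1, TRH and JUP on the left and for LAT2, NFE2 and RASSF2 on the right, and is matched by other lines for MPO, CEBPE and POU4F1.

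The azurophil granule list split evenly, with 7 of 15 measured genes higher and 7 lower, against 19.3% and 16.8% of all genes. The serine proteases of the granule were high: ELANE, neutrophil elastase, at 13.22 and 13.18, PRTN3, proteinase 3, at 11.72 and 11.76, and PRSS57 at 12.92 and 12.7. Their differences were 3.18, 2.87 and 2.8. Other lines shared the levels of ELANE and PRTN3, as MV-4-11, NOMO-1, OCI-AML3 and Sig-M5 did for ELANE (12.21 to 13.24). PRSS57 was above every other line mean, by a gap of 0.71, without being set apart. CTSG, cathepsin G (1.72), and AZU1, azurocidin (1.69), were higher too but, like ELANE, not above every other line mean. MS4A3, a membrane protein of granulocyte and monocyte progenitors, was low at 3.8 and 3.74 against a median of 11.22 and a highest of 12.66, -5.78 ± 0.16 (adjusted p = 3.36e-13). KG-1a was as low at 3.5. SRGN, the granule proteoglycan serglycin (-2.29), and CST7, cystatin F (-2.19), were lower as well. In the secondary and tertiary granule list 1 of 16 was higher and 4 lower. SLPI, a protease inhibitor, was set apart (2.56), while CHI3L1 (-4.14) and TCN1, transcobalamin 1 (-1.85), were lower. Of the other C/EBP and PU.1 partners, GFI1, a repressor of granulocytic precursors (1.92), and CEBPD (1.04) were higher, and IRF8, a monocytic factor (-1.7), and CEBPG (-1.29) were lower. SPI1, which encodes PU.1, was not called (-0.21, adjusted p = 0.36).

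C1QTNF4 had the largest difference among genes set apart higher. It encodes a secreted protein of the C1q and TNF family. Its level was 12.09 and 11.65 against 3.15, 3.62 and 6.46 as the lowest, median and highest of the other 16 arrays. The difference of 7.89 ± 0.16 (adjusted p = 1.08e-14) is at least 237-fold, since most other arrays lay near the bottom of the scale, and NOMO-1, the nearest line, was 5.49 below. GSTM3, a glutathione transferase, stood at 11.6 and 11.65 against 3.13, 4.48 and 8.07, and NOMO-1 and OCI-AML3 held intermediate levels (7.88 and 7.51). Its 2 other probe sets gave differences of 1.07 and 1.86, against 6.63 for the one used.

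EPCAM, an adhesion molecule of epithelia, was the clearest single gap. Kasumi-1 stood at 9.15 and 9.28 and no other array exceeded 3.63 (lowest 2.53, median 2.85), a difference of 6.34 ± 0.13 (adjusted p = 1.56e-14). Its 2 other probe sets gave 7.63 and 7.69. It was the only one of 16 measured genes of adherent and epithelial cells that was higher, and 5 were lower. CDH1 (3.32 and 3.88), KRT19 (4.25 and 4.4), COL1A1 (4.51 and 4.55) and DCN (3.44 and 3.36) were within or close to the range of the other lines, and the mean over the list was 4.42 and 4.36 in Kasumi-1 against 4.12 to 4.87.

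TMSB15A, a thymosin that binds actin monomers, stood at 9.22 and 9.6 against 2.82 to 3.71, with a gap of 5.83. Further genes were near the bottom of the scale in all 16 other arrays: CUX2, a homeobox factor (7.88 and 8.0 against 2.52 to 3.48), and TRPM6, a magnesium channel fused to a kinase (7.83 and 7.56 against 2.41 to 3.14). STYXL2, a pseudophosphatase, was similar at 8.45 and 7.42 against 2.57 to 3.11. In each, the groups were separated by over 4 log2 units.

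The remaining genes of the 14 were present at a moderate level in at least 1 other line. NRN1, neuritin, was at 9.9 and 9.99 and Sig-M5 came nearest at 5.33. SERPINA1, the inhibitor of neutrophil elastase, was at 9.73 and 9.49 with OCI-AML3 at 5.99. VSTM1, an inhibitory receptor of myeloid cells, was at 9.55 and 9.88 with KG-1a at 6.92. FJX1, a homolog of the fly four-jointed kinase, was at 10.59 and 10.12 with Sig-M5 at 6.82. SRPX, a sushi-repeat protein, was at 9.28 and 9.4 with OCI-AML3 at 5.57. COCH, the extracellular protein cochlin, was at 11.16 and 11.32 with NOMO-1 at 8.72. SDC1, the proteoglycan syndecan 1, was at 9.82 and 9.38 with NOMO-1 at 5.55. Their differences ran from 4.96 to 5.81, and the gap was smallest for COCH (2.52) and VSTM1 (2.79).

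Among genes set apart lower, VIM, the intermediate filament vimentin, had the largest difference. Kasumi-1 stood at 3.14 and 3.1, the other arrays had a median of 12.89 and a highest of 13.32, and the difference was -8.11 ± 0.24 (adjusted p = 9.44e-13). KG-1a was low too, its arrays at 3.46 and 5.09, and with replicate 3 alone VIM was no longer set apart. DNAJC15, a co-chaperone of the inner mitochondrial membrane, separated Kasumi-1 from every other line: 3.04 and 3.43 against 8.6, 10.21 and 10.69, -6.7 ± 0.11 (adjusted p = 2.16e-15), with a gap of -5.47. Its other probe set gave -1.90.

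ZNF562, a zinc finger protein (3.25 and 3.25 against 6.85 to 8.35), LRIG1, an inhibitor of ERBB receptors (2.49 and 2.65 against 6.31 to 8.34), and THEM4, a thioesterase (2.98 and 2.88 against 6.56 to 7.87), showed the same picture, with Kasumi-1 under 4 and every other array above 6. SLFN11, known for sensitising cells to DNA damage, stood at 2.85 and 2.72 against 4.86 to 8.6. AP1S2, a clathrin adaptor subunit (-4.92), PTPN12, a tyrosine phosphatase (-4.21), VSIR, the immune checkpoint VISTA (-4.12), and SEL1L3 (-4.06) completed the group with gaps of -2.96, -2.09, -3.1 and -2.27. LGALS1, galectin 1, was at 7.19 and 7.16 against a median of 12.63, with Sig-M5 at 8.86, and S100A10, the partner of annexin A2, was at 3.85 and 3.92 against a median of 9.63, with KG-1a at 5.37. Probe sets disagreed for AP1S2, whose 4 others gave -4.87 to 0.05. The other probe set of LRIG1 gave -1.17 and that of VSIR -1.5, both called lower but neither set apart.

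**Figure D3:**
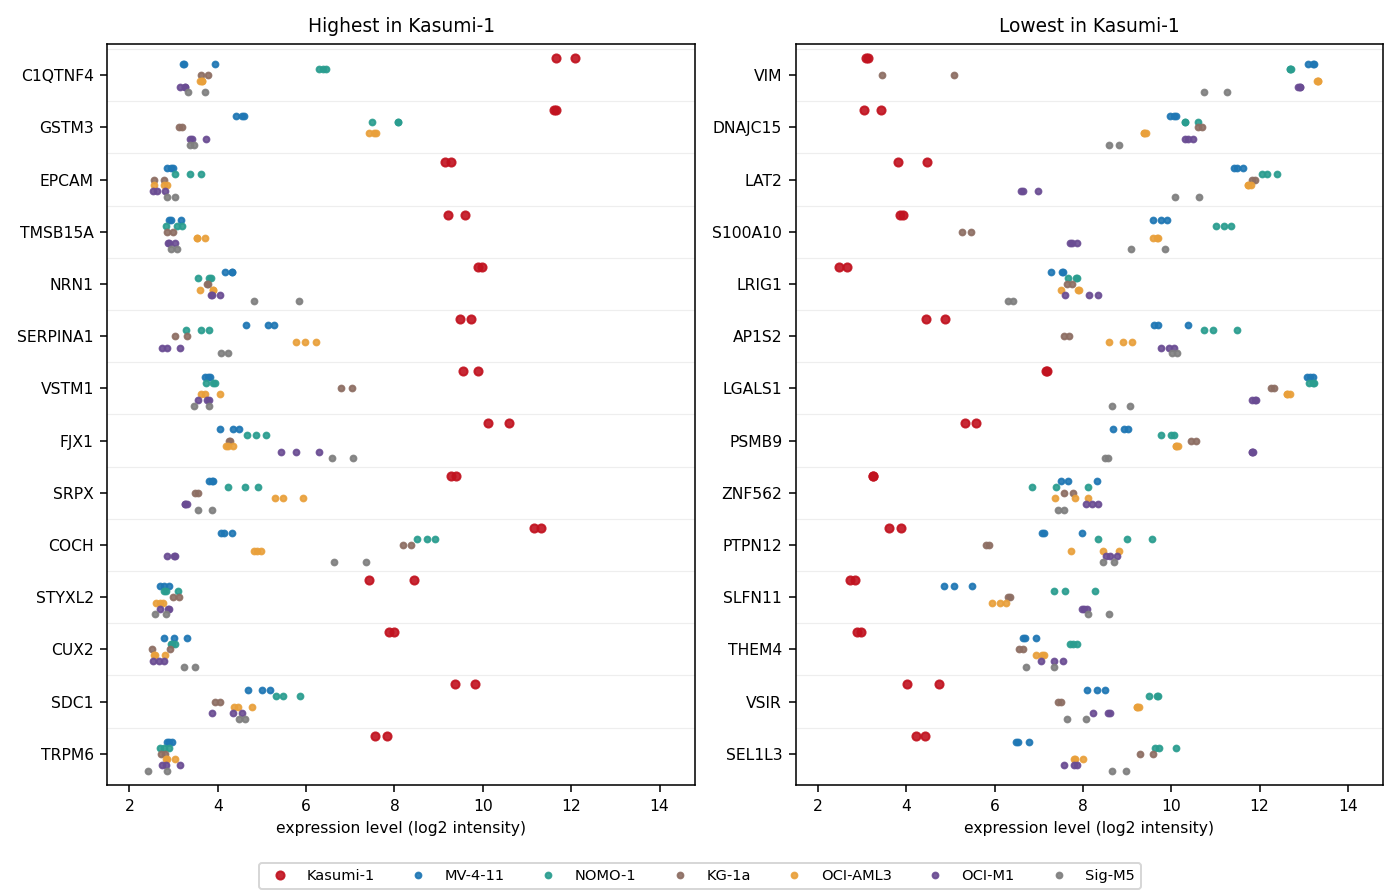
Each point is 1 vehicle array, coloured by line, with the level in log2 intensity. The 14 genes with the largest differences among those set apart higher (left) and lower (right) are shown from top to bottom, and in each row the 2 Kasumi-1 arrays (red) lie beyond all 16 others, narrowly so for VIM, where KG-1a reached 3.46.

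Genes of MHC class I presentation were low in Kasumi-1. In this pathway the immunoproteasome subunits PSMB8 and PSMB9 cut proteins into peptides, TAP1 and TAP2 carry them into the endoplasmic reticulum, tapasin (TAPBP) loads them, and the heavy chain with beta-2 microglobulin (B2M) presents them, while NLRC5 is the transactivator of these genes. Of 12 measured, 10 were lower, 8 of them at least 2-fold, none was higher and 6 were set apart, with a median difference of -1.88. Over all genes 16.8% were lower, 5.26% at least 2-fold lower and 0.463% set apart lower. The mean over the list was 8.26 and 8.11 in the Kasumi-1 arrays, below all other vehicle arrays (9.48 to 11.03).

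TAP1 and PSMB9 share a bidirectional promoter, and the promoter windows of both, each the 250 bases before the RefSeq start on GRCh38.p14, are given because these 2 genes had the largest differences of the list. Capitals mark matches of GAAANNGAAA, the letters of an interferon regulatory element, and of GGGANTTTCC, those of an NF-kappaB site, searched on both strands.
TAP1, minus strand, chr6:32853705-32853954: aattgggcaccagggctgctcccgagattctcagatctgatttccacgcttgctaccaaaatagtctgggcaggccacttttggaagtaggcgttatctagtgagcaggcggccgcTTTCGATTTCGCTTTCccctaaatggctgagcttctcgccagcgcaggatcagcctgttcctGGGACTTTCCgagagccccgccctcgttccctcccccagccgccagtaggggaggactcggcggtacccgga
PSMB9, plus strand, chr6:32853942-32854191: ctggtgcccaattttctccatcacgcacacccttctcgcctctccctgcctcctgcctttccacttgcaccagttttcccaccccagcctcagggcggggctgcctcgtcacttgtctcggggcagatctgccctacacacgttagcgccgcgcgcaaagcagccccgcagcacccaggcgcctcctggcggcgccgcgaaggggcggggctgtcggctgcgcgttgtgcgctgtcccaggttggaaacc
The TAP1 window held 2 overlapping matches of the first pattern, on the reverse strand, and 1 of the second. The PSMB9 window held neither, so both patterns lie nearer to TAP1, and a second TAP1 start in the table had neither. GAAANNGAAA was in 1061 of 35116 promoter windows (3.02%) and GGGANTTTCC in 185 (0.527%). Of 14 windows of 10 list genes, 5 held the first (B2M, HLA-F, TAP1, TAP2 and TAPBP) and 2 the second (B2M and TAP1). A match describes letters and not binding.

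PSMB9 stood at 5.34 and 5.59 in Kasumi-1 against a lowest of 8.49, a median of 10.08 and a highest of 11.86, -4.51 ± 0.1 (adjusted p = 4.79e-14). TAP1 stood at 6.03 and 5.8 against 7.8, 8.69 and 11.45, -3.38 ± 0.13 (adjusted p = 1.41e-11). In both genes Sig-M5 was the nearest line and OCI-M1 the farthest. PSMB8 was at 8.57 and 8.6 (-2.68) and NLRC5 at 6.05 and 5.37 (-2.3), each below all other arrays. One of the 2 further PSMB9 probe sets differed little (0.20), and the other gave -3.72.

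The heavy chains followed in part. HLA-B stood at 10.96 and 11.06 against 12.24 to 13.23 (-1.75 ± 0.09), and HLA-C at 10.39 and 10.33 against 11.54 to 12.57 (-1.78 ± 0.09), both set apart, though both remained among the bright probe sets. HLA-F was low at 4.35 and 4.08, as it was in KG-1a (4.33), with a difference of -3.0. TAP2 (-1.97) was below every line by a gap of -0.61. HLA-E (-0.37) and B2M (-0.51) differed by less than 2-fold, and B2M at 12.65 and 12.76 was not below OCI-AML3 (12.58). The 5 other HLA-E probe sets gave -0.53 to 0.9, with 2 called lower and 1 called higher. TAPBP (0.16, adjusted p = 0.63) and HLA-G (-0.16, adjusted p = 0.576) were not called, and the 4 other TAPBP probe sets gave -1.53 to 0.53, with 3 called lower. TAPBP differed between the 2 Kasumi-1 arrays (10.9 and 9.7). Several of these genes were named after their values were seen. HLA genes are polymorphic and near-identical to each other, and whether the lines' alleles bound the probes equally was not tested.

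**Figure D4:**
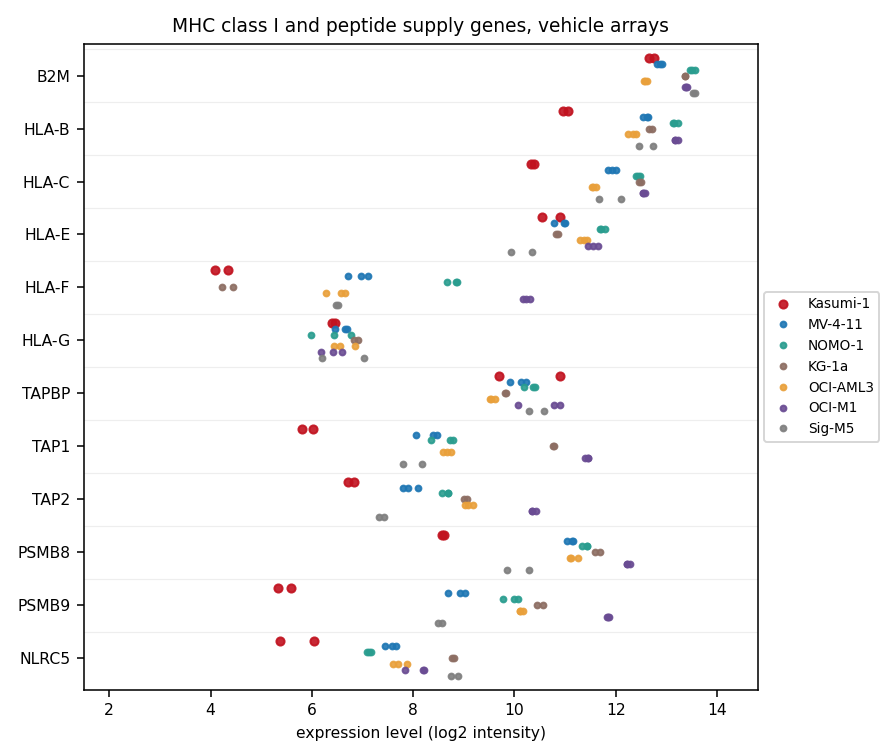
Each point is 1 vehicle array, coloured by line, with the level in log2 intensity on the horizontal axis and 1 gene a row. The 2 Kasumi-1 arrays (red) lie below all others for HLA-B, HLA-C, TAP1, TAP2, PSMB8, PSMB9 and NLRC5, level with KG-1a for HLA-F, and within the others for B2M, HLA-E, HLA-G and TAPBP.

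MHC class II genes were lower in 7 of 11 and higher in none, with a median of -0.80, but no member was set apart. The shares of all genes were 16.8% lower and 19.3% higher. HLA-DRB1 stood at 5.96 and 6.01, a level held by KG-1a, OCI-AML3 and Sig-M5 too, and its difference of -2.33 rested on MV-4-11, NOMO-1 and OCI-M1 (8.43, 12.12 and 11.73). HLA-DPA1 (-2.47) and HLA-DMA (-2.01) had the same distribution. HLA-DRA (8.0 and 7.8) lay between the 3 high and the 3 low lines, and CIITA, the class II transactivator, gave 0.07 (adjusted p = 0.632). Of 30 interferon response genes 15 were lower and 6 higher, the latter near the share of all genes, and none was set apart. MX2 (-2.39), GBP2 (-1.74) and RSAD2 (-1.52) were lower, with RSAD2 high in KG-1a and OCI-M1 alone, while IFITM3 (2.46), IFITM1 (1.38) and IFIT1 (1.02) were higher.

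Monocyte and macrophage genes were lower in 16 of 28 and higher in 2, against 16.8% and 19.3% of all genes. S100A8 stood at 4.57 and 4.75 against a lowest of 4.0, a median of 10.11 and a highest of 13.7 (-4.46 ± 0.1, adjusted p = 5.18e-14), and S100A9, its partner in calprotectin, at 6.12 and 6.14 against 3.36, 9.58 and 13.59 (-2.78 ± 0.1). Kasumi-1 shared these levels with KG-1a and OCI-M1, while NOMO-1 and Sig-M5 were highest. KLF4, a factor of monocytic maturation (-2.69), and CD36, a scavenger receptor (-2.18), were lower. ITGAM, the CD11b integrin chain, was at 4.29 and 4.27 (-1.08), with NOMO-1 at 8.58. Over the alternative settings, with NOMO-1 left out among them, the ITGAM difference ran from -1.65 to -0.44. Its 2 other probe sets gave -2.36 and -1.49, and on each probe set the Kasumi-1 mean was below every line mean. CD14, the endotoxin coreceptor, gave -0.59. FCGR1A (2.05) and TLR2 (1.75) were the 2 that were higher, with KG-1a and OCI-M1 far below the other 4 lines. No gene of the list was set apart.

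HOX genes and cofactors, which maintain progenitor self-renewal, were lower in 9 of 12 and higher in 1, with a median of -1.05. Over all genes 16.8% were lower and 19.3% higher. The mean over the list was 4.36 and 4.40 in Kasumi-1 against 4.84 to 6.37 in the others. PBX3, a HOX cofactor, had the largest difference: 3.08 and 2.97 against 3.15, 8.05 and 10.52 (-4.79 ± 0.14, adjusted p = 5.44e-13), and OCI-M1 was nearly as low (3.3). HOXB2 stood at 3.35 and 3.19, level with MV-4-11, NOMO-1 and Sig-M5 and far under KG-1a (10.77). MEIS1, the other main cofactor, stood at 3.41 and 3.68 (-1.43), like KG-1a, OCI-M1 and Sig-M5. HOXB6 (-1.23) was lower and MEIS2 (0.66) higher. The lines that held these genes high differed from member to member. Most HOXA cluster genes were not analysed here.

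Stem and progenitor genes leaned the other way, with 12 of 29 higher and 4 lower and a median of 0.14. Over all genes 19.3% were higher and 16.8% lower. NPR3 was the 1 gene of the list set apart (2.23), and CPXM1 (2.0) and GATA2 (0.63) were higher, as were KIT and BAALC. CD34, the progenitor surface marker, was at 8.43 and 6.98, so its 2 arrays differed by over 1 log2 unit. The other arrays had a median of 5.12, and KG-1a was higher than both at 9.67. The difference was 1.85 ± 0.23 (adjusted p = 9.44e-06) with both arrays and 1.12 with replicate 3 alone. SPINK2 (-1.27), MLLT3 (-1.18), FLT3 (-0.91) and ANGPT1 (-0.6) were the lower ones. PROM1 (-0.12), THY1 (-0.04), MYB (0.47) and LMO2 (0.12) were not called. ERG, an ETS factor of stem cells, was not called on the dim probe set used here (4.3 and 4.83, difference 0.19), but 9 of its 11 others were called higher, at 1.41 to 4.25, and 4 of them were set apart. The largest difference was in a probe set at 8.24 and 7.92 in Kasumi-1 against a mean of 3.82 in the other lines (adjusted p = 4.52e-12, limma).

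Cytokine and chemokine receptors were lower in 13 of 28 and higher in 5, against 16.8% and 19.3% of all genes. CSF3R, the G-CSF receptor, was set apart at 9.76 and 8.99 against 6.07 to 8.36 (2.16 ± 0.16), though with replicate 3 alone it was not. IL2RG (1.5) and CSF2RB (1.23) were higher. CCR2 (-3.7), CXCR4 (-3.24), IL6R (-3.04) and CX3CR1 (-2.52) were lower, and CCR2 at 3.27 and 3.25 was below every other array (3.7 to 9.88), as were 561 genes in all (3.09%). CXCR4, the receptor for the marrow chemokine CXCL12, stood at 5.46 and 6.15, level with KG-1a and OCI-M1 (5.47 and 5.27) and far from the other 4 lines.

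Among receptor tyrosine kinases, 6 of 33 were higher and 5 lower, close to the shares of all genes (19.3% and 16.8%). RET, the receptor for GDNF ligands, stood at 10.32 and 10.37 in Kasumi-1, 10.6 in NOMO-1 and 7.76 in OCI-AML3, against 2.73 in KG-1a, so it marked Kasumi-1 and NOMO-1 together (4.99 ± 0.11, adjusted p = 3.75e-14). IGF1R (2.31) and FGFR1 (1.27) were higher, and FGFR3 (-1.35) and TYRO3 (-0.73) were lower. Integrins and adhesion molecules divided, with 13 of 30 higher and 10 lower, both above those shares. ITGAL, the alpha chain of LFA-1, stood at 6.12 and 5.77 against 6.3 to 12.29 (-3.89), ITGB7 was lower (-2.35), and SELPLG, the P-selectin ligand, was set apart (-2.15). JAM3 (2.17), CDH2 (2.02), ICAM1 (1.95), ITGA6 (1.93), ITGAV (1.72) and CD44 (1.17) were higher.

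Of 23 targets of the p53 pathway, 15 were lower and 3 higher, with a median of -0.75. Over all genes 16.8% were lower and 19.3% higher. CDKN1A, the cyclin-dependent kinase inhibitor p21, stood at 6.49 and 5.91 against 6.11, 9.05 and 10.58 (-2.51 ± 0.13, adjusted p = 4.58e-10). KG-1a (6.25) and OCI-M1 (6.8) were as low, and the other 4 lines had means from 9.01 to 10.58. ZMAT3 (-2.27), PHLDA3 (-2.14), RRM2B (-2.0), BBC3 (-1.98), DDB2 (-1.86), BAX (-1.13), TNFRSF10B (-1.04) and MDM2 (-1.06) were lower, and TP53INP1 (1.52), TP53I3 (1.51) and PLK3 (1.07) were higher. None was set apart. In the BCL2 family and cell death list 8 of 23 were lower and 4 higher, the latter near the share of all genes. CASP1, the inflammatory caspase, was set apart at 5.22 and 5.2 against 7.56, 8.28 and 9.65 (-3.25 ± 0.16, adjusted p = 3.51e-10). BIK (2.57) and CASP8 (1.01) were higher, and CFLAR (-1.14) was lower. The 7 other CASP8 probe sets gave -0.18 to 0.34, and none was called.

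Retinoid genes were read because the series is about an agonist of RARA. RARA stood at 7.57 and 7.58 against 6.83, 8.0 and 9.36 (-0.51 ± 0.17, adjusted p = 0.0258), within the range of the other lines. Its 9 other probe sets gave -1.47 to -0.11, of which 6 were called lower and 4 put the Kasumi-1 mean below every line mean, none by 1 log2 unit. Of 20 measured genes of the list 3 were higher and 7 lower, against 19.3% and 16.8% of all genes. DHRS3, a retinal reductase, was at 8.25 and 8.08, shared with OCI-M1 (7.96), and had a difference of 2.76 ± 0.21 in vehicle. The same difference was -1.29 in the treated arrays. CYP26A1, which degrades retinoic acid, was near the bottom of the scale at 2.89 and 2.96 (-0.56). RXRA (-0.98) was lower and RXRB (0.73) higher. CD38, an ectoenzyme induced by retinoids, was not called in vehicle (-0.3, adjusted p = 0.095).

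Replication and mitosis genes were lower in 14 of 37 and higher in 4, against 16.8% and 19.3% of all genes. MKI67 stood at 6.06 and 5.14 (-1.56), TOP2A at 7.69 and 6.89 (-1.67), and CENPF (-1.37) and BUB1B (-1.25) were lower. TOP2A and CENPF were higher in Sig-M5, at 12.26 and 8.82, than in any other line. In the treated arrays MKI67, TOP2A and CENPF differed by -0.67, -0.34 and -0.09. Of 18 immediate early genes 6 were higher and 8 lower: JUN (2.03) and DUSP1 (1.42) were higher, and FOS (-2.47) and EGR1 (-2.37) lower. The reference list differed little, with 1 of 11 higher and 5 lower, none by 2-fold, with GAPDH at -0.37 and ACTB at -0.67.

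The labelled cell type was checked on markers of blood cells and of other lineages. Among 14 hematopoietic identity genes, 2 were higher and 5 lower, and the mean over the list was 9.21 and 9.04 in Kasumi-1 against 8.48 to 9.88. LCP1, the leukocyte plastin L, was set apart lower but still bright at 8.88 and 8.86 against 11.02 to 12.98 (-3.07 ± 0.14). PTPRC, the leukocyte antigen CD45, stood at 5.24 and 4.98 (-2.07), level with MV-4-11 (5.16). LAPTM5 (-1.33) was lower and VAV1 (0.54) higher. Defining markers of other types were near the bottom: CD3D of T cells at 3.43 and 3.37 and CPA3 of mast cells at 2.52 and 2.67. HBZ and HBE1 of erythroid cells were at 2.93 and 3.2 and at 4.05 and 4.27.

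Higher calls in the other-lineage lists, against 19.3% of all genes, numbered 1 of 13 erythroid genes (KLF1, 0.88), 1 of 19 T and NK cell genes, 3 of 19 B lymphoid genes, 2 of 14 megakaryocyte genes and 2 of 16 genes of mast cells, eosinophils and basophils. The lower counts were 8, 8, 4, 5 and 6, against 16.8% of all genes. Some single differences rested on 1 line, such as KG-1a for CD3D (12.26) and OCI-M1 for HBZ (8.42). CD8A (6.86 and 6.63, 2.13) and CD79B (7.44 and 7.15, 2.07) were set apart higher as single members, at modest levels, but the 2 other CD79B probe sets gave 0.09 and 0.16 and were not called. FLI1, an ETS factor (2.28), was above every line mean, and BTK (1.37) was level with OCI-M1. Of the 15 cancer-testis antigens, 1 was higher and 2 lower.

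The differences were then read in replicate 3 alone, which had the lower actin value. Of the 233 genes set apart higher, 192 remained set apart with replicate 3 alone, 225 with replicate 2 alone and 151 in the treated arrays. Of the 84 set apart lower, 69, 68 and 62 did. Genes set apart both with replicate 3 alone and in the treated arrays numbered 143 and 54, and every one of the 233 and 84 kept its sign in both. Replicates 2 and 3 make up the mean that selected these genes, so their sign in replicate 3 alone was nearly fixed by the selection. The treated arrays are of drug-treated cells of the same line, and their comparison lines were treated too. The largest differences between replicates 2 and 3 were in SRRM2 (9.82 and 7.77), SUPT6H (9.18 and 7.27), TOR1AIP2 (5.7 and 7.51), SEMA4G (5.28 and 3.48), FAM53B (8.61 and 6.81) and PKM (8.06 and 9.84). FAM53B, SEMA4G and PKM were called, and in replicate 3 alone they gave 0.23, 0.13 and -0.56.

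The list counts were repeated with replicate 3 alone, where 2444 of all genes were called higher (13.5%) and 2213 lower (12.2%). Genes reported high with the fusion were then higher in 12 and lower in 3, those reported repressed higher in 1 and lower in 6, and MHC class I genes lower in 9 and higher in none. Monocyte genes were lower in 13, HOX genes and cofactors in 8, p53 targets in 13 and replication genes in 11, with 3, 1, 3 and 1 higher. Among named genes, 17 lost their call without replicate 2. These were RARA (-0.51), RXRB (0.39), RUNX3 (0.29), VAV1 (0.34), HLA-E (-0.2), CD14 (-0.53), FLT3 (-0.8), ANGPT1 (-0.52), TYRO3 (-0.61), CYP26A1 (-0.52), NF1 (-0.74), MDM2 (-0.73), CENPF (-1.61), BUB1B (-1.17), FAM53B, SEMA4G and PKM. Without replicate 3, MKI67, TOP2A and POU4F1 also lost theirs, at -1.10, -1.27 and -0.46.

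Many genes have more than 1 probe set, and these did not always give the same call. Of 134 called genes named in the text that have another probe set, 18 had none other called in the same direction. These were RUNX2, WT1, CEBPG, ANGPT1, GBP2, FGFR3, TYRO3, MEIS2, TP53INP1, BBC3, BAX, CASP8, CD79B, DUSP1, ACTB, FAM53B, CARD16 and CCND3. Of 21 that were not called, 4 had most of their other probe sets called: ERG, TAPBP, CIITA (-0.58 to 0.34) and CDKN2A (-1.4 to -1.38).

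A direct test of whether the Kasumi-1 difference itself differed between treated and vehicle arrays, from all 39 arrays, called 841 genes (4.64%). Of the 43 genes that had the largest set-apart differences or were fixed by role, 9 were among them. VIM was less low in treated arrays (-6.54), S100A10 likewise (-3.98), SEL1L3 was lower still (-7.0), CD34 was less high (0.83), and CD38 stood at -2.32 there. Leading genes such as C1QTNF4 (7.92), GSTM3 (6.66), TMSB15A (6.43), DNAJC15 (-6.79), LAT2 (-6.1), TAP1 (-3.92) and PSMB9 (-4.28) were set apart in the treated arrays as well. Of the genes described above as set apart, VIM, S100A10, LGALS1 (-4.75), NPR3 (1.75), CSF3R (1.94) and CD79B (2.02) were not set apart there, and the first 3 belong to the 14 leading lower genes.

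**Figure D5:**
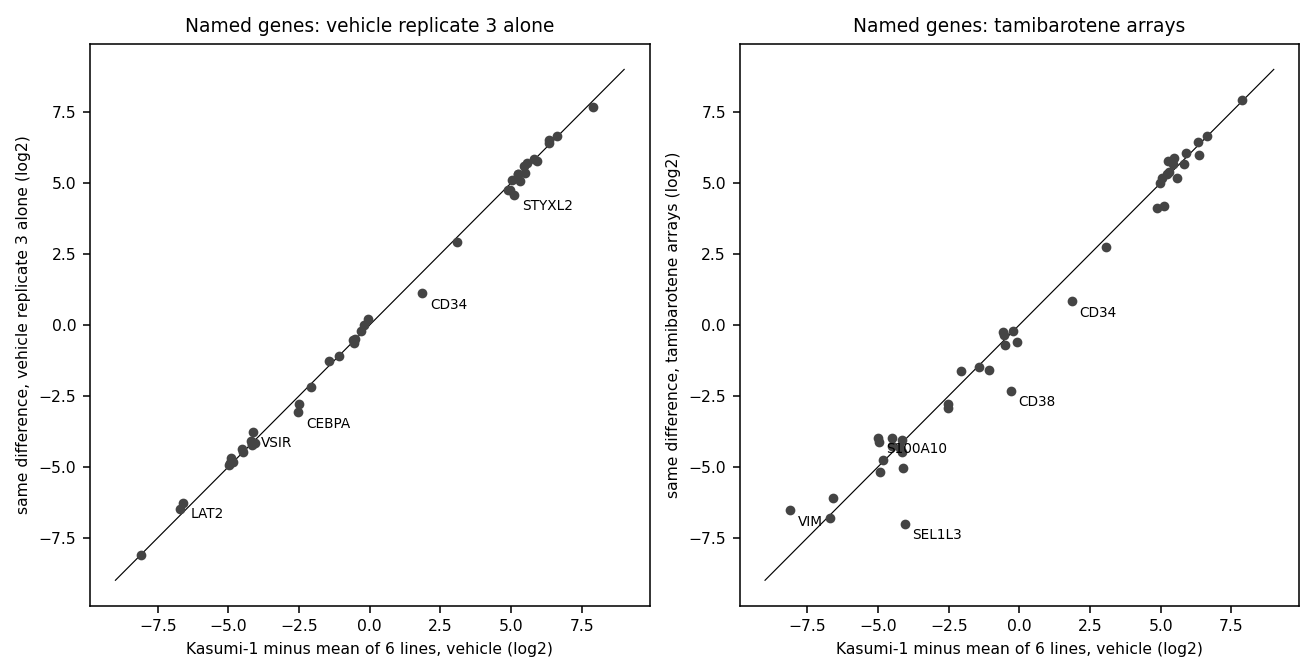
Each point is 1 of 43 genes (the 28 leading set-apart genes and the 15 measured genes fixed by role), with the vehicle difference on the horizontal axis and the same difference from vehicle replicate 3 alone (left) or from the treated arrays (right) on the vertical axis, in log2 units, with the line of equality. Points follow the line closely on the left, where replicate 3 enters both axes and CD34 departs most visibly. On the right VIM, SEL1L3, CD38 and CD34 depart from it.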

How the data were processed

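Total RNA was measured on 39 Affymetrix PrimeView arrays. The deposited log2 intensities are the authors' own, and the submitters' processing notes name RMA and affy as the tools, with no version. It is not stated if the arrays were normalized as 1 set. RMA values are relative, and fold changes on this scale tend to be compressed. Of 49395 probe sets, 44988 name 1 gene symbol in the platform annotation and were tested. 1832 with several symbols, 2473 with none and 102 controls were left out.

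limma 3.58.1 (R 4.3.3, package data.table version 1.17.8) was fitted to the 18 vehicle arrays with a mean for each of 7 lines (11 residual degrees of freedom, lmFit and eBayes), with Benjamini-Hochberg adjustment over the tested probe sets. The treated difference, its calls and its set-apart status came from the same fit to the 21 treated arrays alone. Its test against vehicle came from a fit of all 39 arrays with 14 groups. The procedure was tested on simulated data. Alternatives left out arrays and lines and changed the normalization, filter, weights, variance model and the probe sets of a gene. Python 3.11.15 with matplotlib 3.10.9 made the figures.

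The text names the 14 largest differences each way among genes set apart, up to 4 called members of each of 29 lists each way, the 6 genes that differ most between the Kasumi-1 arrays, and 19 genes fixed by role, of which 15 were analysed here. X-inactivation and Y-linked genes are not named. These further genes were named after their values were seen: HLA-B, HLA-C, HLA-E, HLA-G, NLRC5, TAP2, TAPBP, CTSG, AZU1, OGG1, NF1, CDKN2A, SFRP1, IGFBP7, UBASH3B, WT1, CAV1, PAX5, CD79A, PRDX2, CCND3, MDM2, BAX, DDB2, CPA3, DSC2, PROCR, CD200, TNFRSF10B, PRDM8, SPHK1, CYP26A1, GAPDH, MYB, ERG, LMO2, ITGAV, CD44, CARD16, SP110, CIITA, HLA-DRA, PROM1, THY1, COL1A1, DCN, KRT19, CDH1. The members and lists were chosen with earlier results of these data known. The promoter windows are RefSeq's on GRCh38.p14, and the array values themselves name no build. Replicate numbers did not pair samples: over same-numbered vehicle arrays of different lines the correlation of deviations from the group means ran from -0.73 to 0.73, and it was above 0.1 in 7 of 46 pairs.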

Additional observations from a re-analysis of the deposited data

Results flagged for a closer look

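Among the 43 leading genes and genes fixed by role, 9 had a Kasumi-1 difference that itself differed between the treated and the vehicle arrays (limma, adjusted p under 0.05), as did 4.64% of all genes, and 5 of the 9 did so by at least 1 log2 unit. The value given is the difference of Kasumi-1 from the mean of the 6 lines in treated arrays minus that in vehicle arrays. It was -2.95 for SEL1L3 (adjusted p = 4.46e-14), -2.02 for CD38 (adjusted p = 1.48e-10) and -1.02 for CD34 (adjusted p = 0.00649), and 1.56 for VIM (adjusted p = 9.83e-05) and 1 for S100A10 (adjusted p = 0.00677). The Kasumi-1 levels of CD34 were 8.43 and 6.98 in vehicle replicates 2 and 3. In VIM and S100A10 the 6 line means were compared under drug as well, so a change in any line enters the value. No explanation was tested.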

How the results depend on the processing

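Leaving out each array in turn, called probe sets ranged from 5586 to 7863 (higher) and 4894 to 8143 (lower), and called genes from 2444 to 3610 and from 2164 to 3189. Set-apart probe sets ranged from 520 to 746 and 142 to 193, and set-apart genes from 212 to 318 and 78 to 88. With both arrays 7540 and 7699 probe sets were called and 561 and 157 set apart. The lowest counts of called probe sets were without Kasumi-1 replicate 2, against 6767 and 5926 without replicate 3, and the cause was not tested. Set-apart counts in the lower direction grew when a line was left out, since fewer lines had to be passed: 254 probe sets and 132 genes without KG-1a, 240 probe sets without OCI-M1, and 340 probe sets and 143 genes without Sig-M5. Without Kasumi-1 replicate 2 and both Sig-M5 vehicle arrays, a setting chosen after seeing the data, they were 270 and 132. Averaging the probe sets of each gene left 49 genes set apart lower, and the cause was not tested. A 2-fold minimum left 2616 and 2299 probe sets and 1211 and 954 genes.

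No paired design was found, and the replicate block gave 7045 and 6942 called probe sets, 562 and 152 set apart, 3272 and 2773 called genes, and 235 and 82 set apart. It cost CYP26A1 its call. The treated arrays, all 39 arrays in 1 fit, the actin covariate, quantile normalization, a filter on dim probe sets, array weights (whose estimation stopped before convergence) and a variance trend kept each count of calls and of set-apart features within 1.5 times of the value given. Of 180 called named genes, 142 were called under every alternative.

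Signs reversed in the treated arrays for DHRS3 (-1.29), MEIS2 (-0.38), ITGA6 (-0.50) and TAPBP (-0.24). Without NOMO-1 CDKN2A gave -0.85 and HLA-DRA 1.07, without OCI-M1 HLA-DRA gave 0.90, without KG-1a CD3D gave 0.00, and without Sig-M5 LMO2 gave -0.30. With the mean of probe sets CDKN2A gave -0.90 and TAPBP -0.62. Calls rested on KG-1a for CEBPD (0.01 without it), CSF2RB (0.21) and BTK (0.46), on NOMO-1 for SPINK2 (-0.26), and on OCI-M1 for HBZ (-0.46) and HBE1 (-0.21). With 2 Kasumi-1 arrays, small differences stay uncertain.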

Other observations

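Further genes set apart from all 6 lines were chosen here after their values were seen. PRDX2, a peroxiredoxin that removes hydrogen peroxide, was at 7.7 and 8.03 in Kasumi-1 against 10.43 to 11.76 in the other vehicle arrays (-3.29 ± 0.11), and its 4 other probe sets gave -3.46 to -3.22. CCND3, cyclin D3, was at 7.9 and 7.38 against 9.98 to 11.21 (-3.11 ± 0.13), though its other probe set gave -0.07. CARD16, which shares sequence with CASP1 and binds it, was at 2.85 and 3.97 against 5.5 to 7.96 (-3.18 ± 0.19), and since the genes are near-identical in part the probe sets may share signal. SP110, a nuclear body protein, was at 4.86 and 5.43 against 6.11 to 8.48 (-2.41 ± 0.12), and was not set apart with replicate 3 alone.

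In the other direction, PRDM8, a chromatin regulator, was at 11.32 and 11.08 against 4.68 to 9.24 (4.22 ± 0.17). SPHK1, the kinase that makes sphingosine 1-phosphate, was at 10.79 and 10.07 against 5.53 to 7.2 (4.33 ± 0.16). PROCR, the protein C receptor, was at 9.59 and 9.76 against 4.41 to 7.37 (3.89 ± 0.15). CD200, an inhibitory ligand of myeloid cells, was at 8.01 and 8.98, with KG-1a at 6.89 the one other line well above the rest. DSC2, a desmosomal cadherin that binds plakoglobin, was at 7.59 and 6.9 against 2.94 to 3.9 (3.86 ± 0.16), and its 5 other probe sets gave 0.23 to 2.65. These 5 genes were set apart in the treated arrays too.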
